A study of Mus musculus with 4 samples.

Results

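The response of mouse synovial fibroblasts to IL-1β while their cyclooxygenases were blocked was read from 2 arrays. One came from a dish given IL-1β at 5 ng/ml together with 1 µM indomethacin, the other from a dish given vehicle, and both were harvested after 6 h. They are 2 of the 4 arrays of the series and were chosen by their titles. The other two, IL-1β without a further drug and IL-1β with indomethacin and 1 µM iloprost, are given beside them. The synovial fibroblasts of every dish were isolated from the knees of DBA/1J males, 8 to 12 weeks old and without arthritis, had been passaged 3 to 4 times, and were kept in medium with 1% serum. The labels do not say how many mice or separate cultures contributed. Each treatment has 1 array, and the cells behind it are called a dish here. An array with indomethacin but no IL-1β is not analysed here, so an effect of indomethacin itself cannot be told apart from that of IL-1β under indomethacin.

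IL-1β binds a receptor on the fibroblast surface that recruits the adaptor MyD88 and IRAK kinases. These switch on NF-κB and the MAP kinases, which drive transcription of cytokines, chemokines and matrix-degrading enzymes. The same signal induces cyclooxygenase-2, and the prostaglandins it makes act back on the cells through receptors that raise or lower cAMP. Indomethacin inhibits both cyclooxygenases and so stops prostanoid synthesis. Iloprost is a stable analogue of prostacyclin.

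Values are deposited linear signals of an Affymetrix array. A floor of 37.6, the 50th percentile over the 4 arrays, replaced every lower signal. A log2 ratio has the shift of the median gene taken off, which was 0.08 between IL-1β with indomethacin and vehicle. Where vehicle lay at the floor the ratio is a lower bound, written as at least, and where the treated array did, an upper bound, written as at most. A gene is called higher or lower at a 2-fold difference, a log2 ratio of 1 either way. With 1 array per group there is no test and no p-value. Probe sets of the same gene differed in this log2 ratio with an SD of 0.20 (2337 genes), which is noise within the arrays and leaves out any difference between dishes.

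Of 6804 genes above the floor on at least 1 of the 2 arrays, 90 exceeded vehicle at least 2-fold under IL-1β and indomethacin, or 1.32%, and 22 were at least 2-fold lower, or 0.323%. Of the called genes 80.4% were higher, and 88.7% as deposited. On the values as deposited the counts were 94 (1.38%) and 12 (0.176%). The median ratio of all 6804 genes was -0.02, and the central 95% lay between -0.61 and 0.70. Most genes, 93.7%, were within 1.5-fold of vehicle. Of the 90 higher genes, 71 were above the floor on both arrays, and 18 of the 90 had a ratio of at least 2. The signals of the higher genes on the treated array ran from 81.4 to 3613 with a median of 335. The lower genes were dim, with vehicle signals from 72.4 to 785 and a median of 91.1, and 9 of the 22 were at the floor on the treated array.

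**Figure D1:**
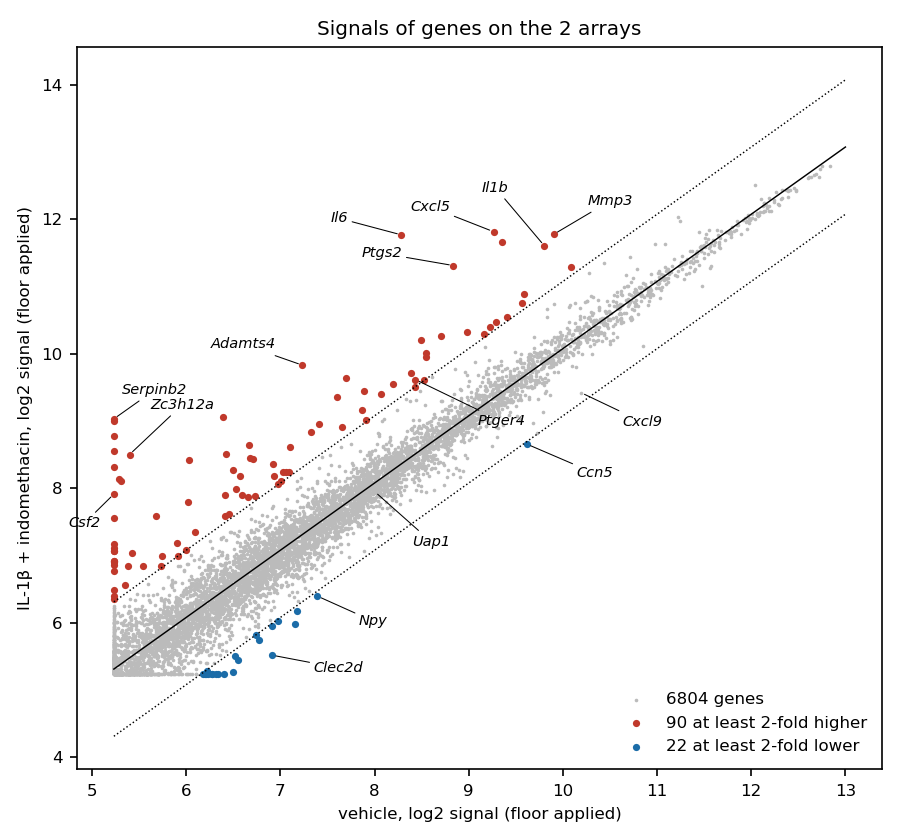
Log2 signal of each of 6804 genes with vehicle (x axis) and with IL-1β and indomethacin (y axis), 1 array each, with signals under the floor set to it. The solid line marks a ratio equal to that of the median gene and the dotted lines 2-fold to either side; 90 genes lie above and 22 below, and Il6, Cxcl5 and Mmp3 are among the bright genes above.

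The label of fibroblasts was checked against marker genes, and both fibroblast and macrophage markers were bright on both arrays. The collagen gene Col1a2 was at 5698 in vehicle and 5511 under IL-1β and indomethacin, and the macrophage lysozyme gene Lyz2 had 5606 and 5651. Of 26 macrophage markers 25 were above the floor on both arrays, and their summed signal was 43850 with vehicle and 43184 with treatment. Past 2-fold were 0 of 25, which is near the shares over all genes with a ratio, 1.32% higher and 0.323% lower. Of 18 fibroblast markers 17 were above the floor on both arrays, with summed signals of 30129 and 30571. Endothelial and lymphocyte genes were near 0. Pecam1 had signals of 1.4 and 0.9 and Cd3e 3.1 and 3.7, and only Eng of 13 endothelial markers and 0 of 10 lymphocyte markers with a probe set were above the floor. The part of macrophage RNA in the values below was not tested, and in bulk RNA fewer cells of a type cannot be told apart from less RNA per cell.

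Promoters are shown for genes that represent the patterns described further on. The windows are the 250 bases before the start site in RefSeq (GRCm38.p6), read 5′ to 3′ on the gene's strand. Il6 (chr5:30012864-30013113, plus strand), Cxcl1 (chr5:90890995-90891244, plus), Cxcl2 (chr5:90903649-90903898, plus) and Mmp3 (chr9:7445572-7445821, plus) are shown as genes that were higher with IL-1β and indomethacin. Uap1 (chr1:170174965-170175214, minus) and Nr4a1 (chr15:101266596-101266845, plus) are shown as genes whose ratio was lower with indomethacin than with IL-1β alone. Capitals mark matches on either strand to the NF-κB site, to the AP-1 site TGANTCA or to TGACG, the half-site of the cAMP response element (CRE), which reads CGTCA on the other strand.
Il6: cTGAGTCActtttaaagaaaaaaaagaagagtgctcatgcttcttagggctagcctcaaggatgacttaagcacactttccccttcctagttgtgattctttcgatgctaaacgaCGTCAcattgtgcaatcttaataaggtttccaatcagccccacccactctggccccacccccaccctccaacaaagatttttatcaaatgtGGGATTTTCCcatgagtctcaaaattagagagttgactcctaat
Cxcl1: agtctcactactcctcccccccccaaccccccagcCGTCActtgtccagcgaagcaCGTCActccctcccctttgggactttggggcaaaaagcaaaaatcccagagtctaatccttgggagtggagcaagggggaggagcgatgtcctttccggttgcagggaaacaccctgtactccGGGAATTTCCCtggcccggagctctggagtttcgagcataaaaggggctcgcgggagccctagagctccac
Cxcl2: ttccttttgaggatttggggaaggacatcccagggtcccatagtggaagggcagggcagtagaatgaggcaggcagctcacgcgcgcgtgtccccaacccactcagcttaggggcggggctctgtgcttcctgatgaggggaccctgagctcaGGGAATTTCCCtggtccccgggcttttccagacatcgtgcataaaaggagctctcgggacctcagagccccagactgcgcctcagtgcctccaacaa
Mmp3: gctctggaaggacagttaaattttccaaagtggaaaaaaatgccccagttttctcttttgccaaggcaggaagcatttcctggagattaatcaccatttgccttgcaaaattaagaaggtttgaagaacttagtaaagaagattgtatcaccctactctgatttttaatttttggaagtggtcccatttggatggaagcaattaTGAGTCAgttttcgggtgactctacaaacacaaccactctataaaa
Uap1: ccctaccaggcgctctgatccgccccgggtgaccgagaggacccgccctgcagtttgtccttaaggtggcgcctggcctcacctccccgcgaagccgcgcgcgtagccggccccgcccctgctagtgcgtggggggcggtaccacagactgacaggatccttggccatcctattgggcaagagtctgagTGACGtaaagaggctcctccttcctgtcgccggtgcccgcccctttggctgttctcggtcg
Nr4a1: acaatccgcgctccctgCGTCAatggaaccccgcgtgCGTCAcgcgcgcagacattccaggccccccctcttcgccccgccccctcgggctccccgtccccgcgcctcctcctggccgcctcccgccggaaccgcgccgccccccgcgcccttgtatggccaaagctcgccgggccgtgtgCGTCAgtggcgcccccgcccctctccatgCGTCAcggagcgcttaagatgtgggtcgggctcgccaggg
The Il6 window holds the NF-κB match GGGATTTTCC at 44 to 35 bases before the start, a CRE half-site and an AP-1 match. Cxcl1 and Cxcl2 share the run GGGAATTTCCC, a match on both strands, and Cxcl1 also has 2 CRE half-sites. Mmp3 has a single AP-1 match, TGAGTCA. The Uap1 window has 1 CRE half-site and the Nr4a1 window 4, and neither has a match to the NF-κB or the AP-1 letters. Windows of other genes with the ratio pattern of Uap1 and Nr4a1 were not counted as a set.

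The same search was run over all windows. Promoter windows were found for 62 of the 90 higher genes, and 13 of the 62 (21.0%) held an NF-κB match, against 8.67% of 5561 windows of all genes with a ratio. An AP-1 match was in 12 of 62 (19.4%), against 4.26%, and a CRE half-site in 15 of 62 (24.2%), against 29.2%. A full CRE was in 4 of 62 (6.45%), against 2.82%. Of 17 windows of the lower genes, 1 held an NF-κB match, 1 an AP-1 match and 2 a CRE half-site. A full CRE joins a half-site on each strand and counts once here, and an NF-κB run that matches on both strands also counts once. A match is a run of letters and not a bound site.

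Several cytokine genes had large ratios over vehicle. Il6, an inflammatory cytokine gene, stood at 312 in vehicle and 3496 under IL-1β and indomethacin, 10.6-fold higher relative to the median gene, a log2 ratio of 3.41. It was at 4757 with IL-1β alone and 3617 with iloprost added. All 3 stimulated dishes were thus far above vehicle, and the ratio with IL-1β alone was 3.71. Il1b, which encodes IL-1β itself, went from 894 to 3121, a ratio of 1.73, and stood at 3952 with IL-1β alone and 1323 with iloprost. Its relative Il1a was below the floor with vehicle, at 23.8, and at 189 with treatment, a ratio of at least 2.25. Lif, a cytokine of the IL-6 family, was below the floor with vehicle and at 320 with treatment, at least 3.01, where IL-1β alone gave 619 and at least 3.81.

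Of 24 cytokine genes with a probe set, 13 had a ratio, 7 were at least 2-fold higher and 0 lower. Over all 6804 genes with a ratio, 1.32% were higher and 0.323% lower. Those shares also apply to the list counts below, where 0 lower is near the share. The median of the 13 was 1.73, but 5 of them passed the floor only on the treated array, so it says nothing of the other 11. The median moved to 0.74 with the floor at the 35th percentile and to 0.91 with it at the 65th. Csf2, which encodes the growth factor GM-CSF, had a signal of 1.6 with vehicle, 79.0 with IL-1β, 241 with IL-1β and indomethacin and 28.3 with iloprost added. It was highest with indomethacin, at least 2.60, against at least 0.85 with IL-1β alone. Inhba, a subunit of activin, was at 207 with vehicle and 796 with treatment, a ratio of 1.86, and at 1983 with IL-1β alone, a ratio of 3.04. The alarmin Tslp was at 8.0 with vehicle, 144 with treatment and 351 with IL-1β alone. Il33, another alarmin, had a ratio of 0.76 with indomethacin and 2.02 without. The macrophage growth factor Csf1 was at 0.84, and its other probe sets were between 0.78 and 1.03, the highest past 2-fold. Tnf, Il15 and Il18, at -0.31, -0.27 and -0.01, were within 1.5-fold of vehicle.

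**Figure D2:**
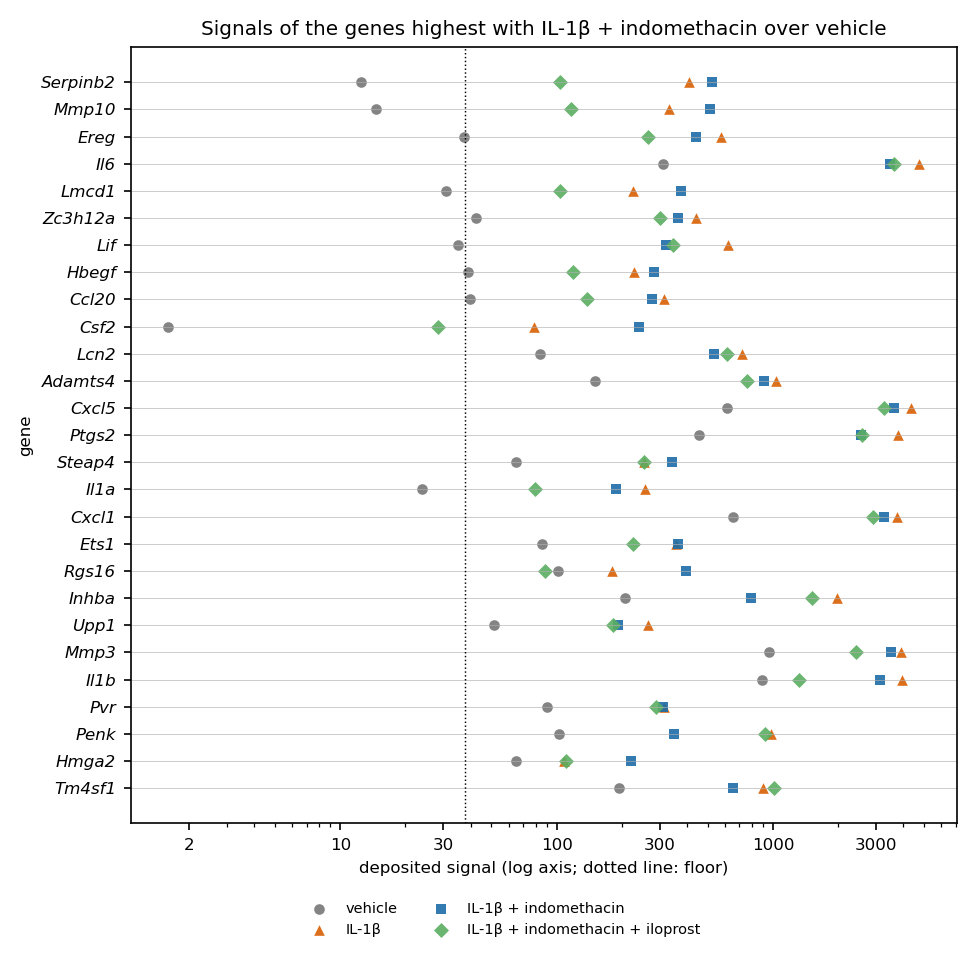
Deposited signal (x axis, log scale) of 27 genes (y axis), the 20 highest ratios of IL-1β and indomethacin over vehicle among genes above the floor on both and bright on 1, and the 7 genes at the floor with vehicle and at least 4-fold above it with treatment, on each of the 4 arrays; the dotted line is the floor of 37.6. Vehicle is the lowest of the 4 arrays for 26 of the 27 genes, the exception being Rgs16, where the iloprost array lies at 88.6 against 101 with vehicle.

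Of 5 neutrophil chemokine genes with a probe set, 3 had a ratio and were at least 2-fold higher, and the other two, Cxcl15 and Ppbp, were at the floor on both arrays. Cxcl5 went from 615 to 3613, a ratio of 2.48, Cxcl1 from 653 to 3250, a ratio of 2.24, and Cxcl2 from 1083 to 2513, a ratio of 1.14. Their ratios with IL-1β alone were 2.60, 2.30 and 1.23. These 3 differed between the IL-1β arrays with and without indomethacin by no more than the noise between probe sets. Ccl20, which attracts CCR6-bearing lymphocytes, was at 39.7 with vehicle and 275 with treatment, a ratio of 2.71, and at 2.75 with IL-1β alone.

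The monocyte chemokines gave smaller ratios. Of 14 CC and other chemokine genes with a ratio, 13 were above the median gene, 2 were at least 2-fold higher and 0 lower, with a median of 0.43. Ccl2 and Ccl7, bright already with vehicle at 4200 and 2012, were at 0.40 and 0.58. Ccl4 was at 293 with vehicle, 325 with IL-1β, 751 with IL-1β and indomethacin and 62.9 with iloprost. Its ratio was 1.28 with indomethacin and -0.08 without. Ccl3 was at 0.84 with indomethacin and -0.32 without. Macrophages also express Ccl3 and Ccl4, and the summed macrophage markers given above were 43850 and 43184; their part in these values was not tested. The CXCR3 ligands, chemokines induced by interferon, were not above vehicle, with Cxcl10 at -0.04, Cxcl11 at -0.16 and Cxcl9 at -0.84. Cxcl9 had a signal of 1168 with vehicle, 688 with IL-1β and indomethacin and 371 with IL-1β alone.

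Genes of matrix-degrading enzymes were split. Mmp10, a stromelysin, was at 14.6 with vehicle, 331 with IL-1β, 513 with IL-1β and indomethacin and 117 with iloprost, a ratio of at least 3.69. Adamts4, an aggrecanase of cartilage, went from 151 to 912, a ratio of 2.52, and Mmp3, stromelysin-1, from 959 to 3520, a ratio of 1.80. With IL-1β alone their ratios were 2.55 and 1.80, so both stood at the same height with and without indomethacin. The collagenase gene Mmp13 was at 1.12, the macrophage elastase gene Mmp12 at 1.08 and the gelatinase gene Mmp9 at 1.05. Of 18 genes of proteases and their inhibitors with a ratio, 6 were at least 2-fold higher and 0 lower, while the median was 0.04. Near vehicle, Mmp2, Mmp14, Timp2 and Timp3 were all between -0.21 and 0.04. Timp1, which inhibits metalloproteinases, was at 0.65. Adamts1 and Adamts5 were at 0.71 and -0.07, against 1.94 and 0.84 with IL-1β alone.

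Of 18 NF-κB subunit and feedback genes with a ratio, 4 were at least 2-fold higher and 0 lower, with a median of 0.05. Zc3h12a, an RNase that degrades cytokine transcripts, went from 42.2 to 363, a ratio of 3.03, and was at 3.15 with IL-1β alone. Ier3, an early-response gene, was at 1.27, Nfkbiz, a nuclear cofactor needed for Il6 transcription, at 1.25, and Tnfaip3, the ubiquitin-editing enzyme A20, at 1.18. Rela, Relb and Nfkb2 were at 0.12, -0.20 and 0.29, and Nfkbia, which encodes the inhibitor IκBα, was at 4499 with vehicle and 4869 with treatment, a ratio of 0.04. Other feedback genes were near or below vehicle, with Tnip1 at 0.17, Birc3 at -0.12, Nfkbie at -0.41 and Bcl3 at -0.71. Of 19 genes of the IL-1 receptor and its signalling chain, 0 were past 2-fold in either direction, and they ran from -0.39 for the receptor antagonist Il1rn to 0.47 for the kinase gene Ikbkb. The receptor gene Il1r1 had signals of 102 with vehicle, 115 with IL-1β and indomethacin, 207 with IL-1β alone and 235 with iloprost.

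Among early transcription factors, Fosl1, which encodes the AP-1 subunit FRA-1, was at 37.1 with vehicle and 138 with treatment, at least 1.80. Egr1 and Egr2 were at 1.44 and 1.18, with the other Egr2 probe set inside 2-fold at 0.76. Ets1, an ETS factor, was at 85.9 with vehicle and 363 with treatment. Of other AP-1 genes, Fos was at -0.13, Junb at 0.01 and Jun at 0.32, with a dimmer Jun probe set at 0.85. Of 17 such genes with a ratio, 3 were at least 2-fold higher and 0 lower, with a median of 0.16. Klf4 was lowest at -0.74, and its dimmer probe set, above the floor on both arrays, was past 2-fold lower at -1.09. Socs3, which limits signalling by IL-6 family cytokines, went from 416 to 1226, a ratio of 1.48, and its 3 probe sets were between 1.09 and 1.48. Of 18 genes of the SOCS and JAK-STAT list it was the only one past 2-fold. Of 11 MAP kinase phosphatase and sprouty genes 0 were past 2-fold, with a median of 0.34 and Dusp6, a phosphatase of ERK, highest at 0.89.

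Acute-phase and metal-handling genes were higher in part. Lcn2, the iron-scavenging lipocalin, went from 84.1 to 535, a ratio of 2.59. Steap4, a metalloreductase, was at 65.2 with vehicle, 252 with IL-1β, 341 with IL-1β and indomethacin and 253 with iloprost, a ratio of 2.31. Slc39a14, a zinc and iron importer, was at 1.33, and the inducible nitric oxide synthase gene Nos2 at at least 1.60, against at least 0.77 with IL-1β alone. Of 17 genes of this list with a ratio, 4 were at least 2-fold higher and 0 lower, with a median of 0.17. Saa3 and Hp, acute-phase genes, were at 0.73 and 0.44, and the metallothionein genes Mt1 and Mt2 at -0.07 and 0.07.

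Of 16 coagulation and fibrinolysis genes with a ratio, 3 were at least 2-fold higher and 0 lower, with a median of 0.31. Serpinb2, an inhibitor of urokinase, was at 12.5 with vehicle, 408 with IL-1β, 524 with IL-1β and indomethacin and 104 with iloprost, a ratio of at least 3.72. Plaur, the urokinase receptor, was at 1.47, and Tfpi2, a protease inhibitor, at 1.01, while tissue factor F3 was at -0.59. On the EGF receptor ligand list, which also holds receptors and an inhibitor, 4 of 9 genes with a probe set had a ratio and 2 were at least 2-fold higher. The EGF receptor ligand genes Ereg and Hbegf were at at least 3.47 and at 2.77. Both were at or near the floor with vehicle, at 37.5 and 39.0, and at 440 and 282 with treatment. Pdgfa, at 1.10, was the only one of 18 angiogenic growth factor genes past 2-fold, and its other probe set was inside 2-fold at 0.63. Angpt1 was at at most -0.71. Of 18 activin, BMP and TGF-β genes 3 were at least 2-fold higher, Inhba, Bmp6 at at least 1.59 and Tgfb2 at 1.21, and 1 was lower, Smad6. Vegfa, the endothelial growth factor, was at 0.86, against 1.81 with IL-1β alone. Lmcd1, a LIM-domain cofactor, was at 30.8 with vehicle and 375 with treatment, at least 3.24.

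Of 9 prostanoid synthesis and breakdown genes with a ratio, 1 was at least 2-fold higher and 0 lower, with a median of 0.23. Ptgs2, the inducible cyclooxygenase that indomethacin inhibits, went from 457 to 2547, a ratio of 2.40, and a second probe set gave 2.74. It was at 3798 with IL-1β alone and 2579 with iloprost. Ptges, which makes prostaglandin E2, was at 0.85 with indomethacin and 0.86 without, and its other probe set, at 130 with vehicle and 301 with treatment, was past 2-fold at 1.13. Both measured receptor genes for prostaglandin E2 that couple to cAMP were higher than vehicle. Ptger4 was at 346 with vehicle, 379 with IL-1β, 786 with IL-1β and indomethacin and 228 with iloprost, a ratio of 1.10 against -0.09 without indomethacin. Ptger2 was at 17.8 with vehicle and 84.2 with treatment, at least 1.08. The prostacyclin receptor gene Ptgir was at 0.33 and the prostaglandin F receptor gene Ptgfr at -0.86.

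**Figure D3:**
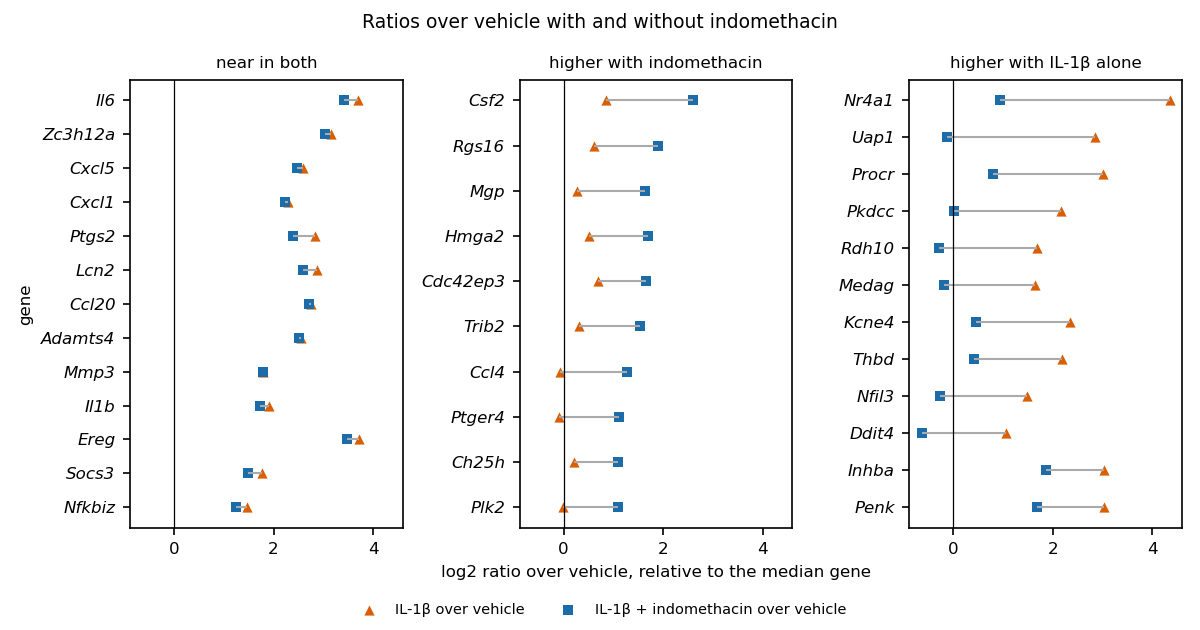
Log2 ratio over vehicle, relative to the median gene (x axis), of 35 genes (y axis) with IL-1β alone (triangles) and with IL-1β and indomethacin (squares), 1 array each and the same vehicle array for both. The genes of the 3 panels were chosen after their values were seen; ratios of Ereg, Csf2 and Nr4a1 are lower bounds, and Uap1, for example, is at 2.85 with IL-1β alone and at -0.12 with indomethacin.

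Several genes that were high with IL-1β alone had no such ratio under indomethacin. Uap1, an enzyme of hexosamine synthesis, had a signal of 256 with vehicle, 2156 with IL-1β, 248 with IL-1β and indomethacin and 2689 with iloprost. Its ratio was -0.12, and its other 2 probe sets were at 0.21 and 0.16. Pkdcc, a secreted kinase, was at 66.0, 347, 70.3 and 325 in the same order, a ratio of 0.01. Il11, Stc1, Tnfsf11 and Nr4a2 were below the floor with vehicle and again with indomethacin, so that they have no ratio. Rdh10 and Medag were at -0.28 and -0.18, where IL-1β alone gave 1.69 and 1.64. Ddit4 and Gem lay below vehicle, at -0.63 and at most -0.54, where IL-1β alone gave 1.07 and 1.66. A second set stood between the levels. Nr4a1, an orphan nuclear receptor, was at 34.1 with vehicle, 75.8 with indomethacin and 897 with IL-1β alone, a ratio of at least 0.93. Procr, the protein C receptor, was at 0.81, Kcne4 at 0.45 and thrombomodulin Thbd at 0.43. Penk, which encodes enkephalin, was past 2-fold, at 351 against 103 with vehicle, a ratio of 1.69 where IL-1β alone gave 3.03.

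The lists for cAMP targets and for hyaluronan were counted over all members with a probe set. Of 23 targets of cAMP and CREB, 3 were at least 2-fold higher than vehicle with indomethacin, namely Ereg, Penk and Egr1. Over all genes, 1.32% were called higher and 0.323% lower with indomethacin. With IL-1β alone, where 1.72% of all genes were called higher and 0.56% lower, 11 of the 23 were higher. These shares are over genes with a ratio, while the list counts are over members with a probe set. Medians are not set side by side, since 12 of the 23 had a ratio with indomethacin and 17 with IL-1β alone. Crem, a CREB-family repressor, was at 0.34 and Pde4b, a cAMP phosphodiesterase, at -0.24, with its other probe set at 0.39. Of 14 genes of hyaluronan synthesis and binding 0 were past 2-fold with indomethacin, which is near the share over all genes. With IL-1β alone 5 of the 14 exceeded vehicle at least 2-fold. Cemip, of hyaluronan breakdown and not on that list, was at 1.53 with indomethacin and 1.26 without. The synthase Has2 had a signal of 125 with vehicle, 103 with IL-1β and indomethacin and 286 with IL-1β alone. Ugdh, which makes the hyaluronan precursor UDP-glucuronate, was at 0.49. The 2 comparisons share the vehicle array, so their values are given side by side only.

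Another set was higher with IL-1β and indomethacin than in any other dish. Mgp, a matrix protein that inhibits calcification, had signals of 361 with vehicle, 507 with IL-1β, 1179 with IL-1β and indomethacin and 387 with iloprost, a ratio of 1.63. Rgs16, which shuts off G-protein signalling, was at 101, 181, 399 and 88.6, a ratio of 1.90, and its 3 probe sets were between 1.62 and 1.90. Hmga2, a chromatin protein, was at 64.9, 108, 221 and 110, a ratio of 1.69, and its other probe sets were at 1.35 and 0.95. Cdc42ep3, a Cdc42 effector, was at 1.65, the pseudokinase gene Trib2 at 1.54 and Cyth3 at 1.27. Ch25h, which makes 25-hydroxycholesterol, was at 626, 844, 1419 and 232, a ratio of 1.10, and Plk2, a polo-like kinase, was at 599, 695, 1346 and 569, a ratio of 1.09. With IL-1β alone these 8 genes had ratios between -0.01 and 0.69, none past 2-fold. They were picked for this order after their values were seen.

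The genes below vehicle were few and mostly dim. Only 7 of the 22 had a vehicle signal of 113.2 or more, the 70th percentile of all values. Among those above the floor on both arrays Clec2d, a C-type lectin, was lowest at -1.47. Its signals were 120 with vehicle, 45.8 with IL-1β and indomethacin and 63.8 with IL-1β alone. Zfp503, a zinc-finger repressor, was at 142 with vehicle, 63.1 with treatment and 121 with IL-1β alone, a ratio of -1.25. Npy, which encodes neuropeptide Y, was at 168 with vehicle, 84.2 with treatment, 196 with IL-1β alone and 765 with iloprost. Ccn5, a matricellular protein of the Wnt-induced family, was the only lower gene with a vehicle signal above 200, at 785 against 404 with treatment, a ratio of -1.04. Rspo2, an enhancer of Wnt signalling, was just inside 2-fold at -0.98, with 849 and 453, and lower with IL-1β alone, at -1.74. The Wnt receptor gene Fzd2 and the BMP inhibitor gene Smad6 were at at most -1.25 and -1.16, but the other Fzd2 probe set, above the floor on both arrays, was at -0.45. Of 13 genes of the Wnt list, 1 was at least 2-fold higher, Ccn4 at 1.03, and 2 lower, with a median of -0.20. Mylk and Cnn1, contractile genes, were at -1.18, with a dimmer Mylk probe set at at most -0.36, and at most -1.08, both dim with vehicle at 93.4 and 75.4, while bright contractile genes such as Acta2 and Tagln were at 0.00 and -0.13.

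**Figure D4:**
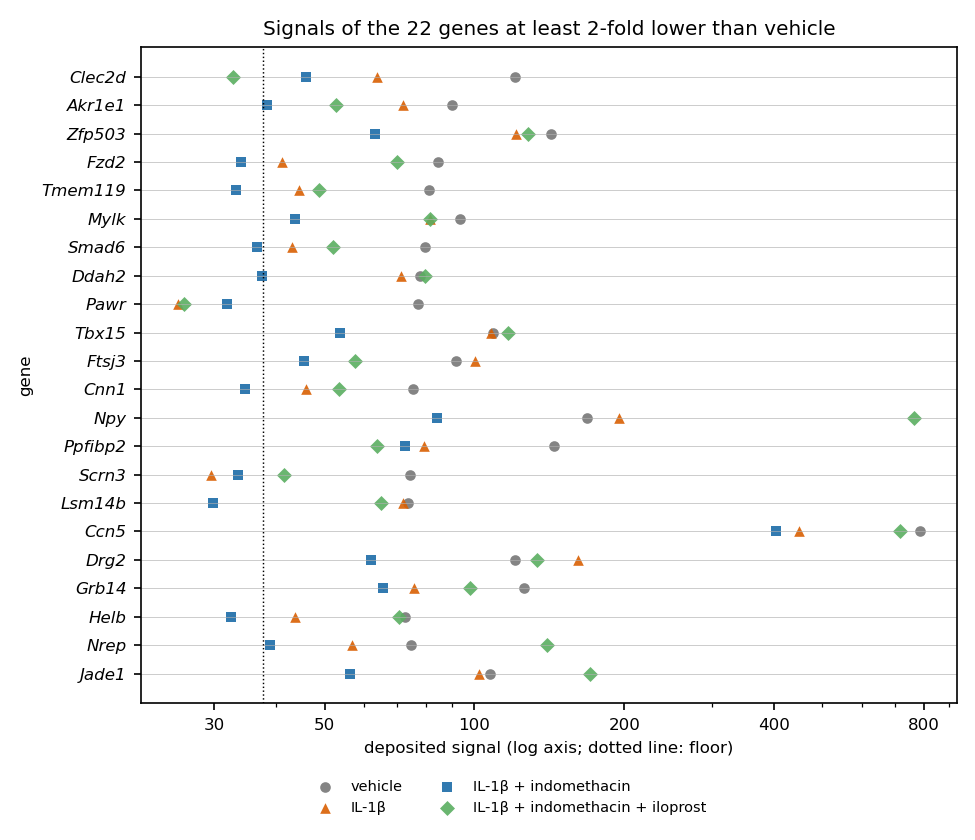
Deposited signal (x axis, log scale) of the 22 genes at least 2-fold lower with IL-1β and indomethacin than with vehicle (y axis), on each of the 4 arrays; the dotted line is the floor of 37.6. On the IL-1β and indomethacin array 9 genes lie below the floor, and Ccn5, at 785 with vehicle, is the only gene whose vehicle signal is above 200.

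Interferon-response genes were mostly a little below the median gene. Of 39 with a ratio, 34 were below it, with a median of -0.18, beside -0.02 for all genes. In either direction 0 of the 39 were past 2-fold. The shares over all genes with a ratio were 1.32% higher and 0.323% lower, so a count of 0 is near them. As deposited, the median was -0.10. The antiviral GTPase gene Mx1 was lowest at -0.63, with signals of 465 with vehicle, 317 with IL-1β and indomethacin and 241 with IL-1β alone, and the transcription factor gene Irf1 was at -0.33, against -1.08 with IL-1β alone. Ifit1 and Rsad2, 2 antiviral effectors, were both at -0.17. For the 14 genes of MHC class I and antigen presentation the median was -0.12, and 0 were past 2-fold by their brightest probe set. A further bright H2-K1 probe set, at 2315 with vehicle and 1119 with treatment, was past 2-fold lower at -1.13. The remaining H2-K1 probe sets were between -0.12 and -0.01. Genes of sterol and fatty acid synthesis had the lowest median of all lists, -0.28, with 16 of 20 below the median gene and 0 past 2-fold, and Fdft1, squalene synthase, lowest at -0.82. The medians were -0.09 for matrix structural genes, where the matrix glycoprotein Tnc alone was past 2-fold at 1.39, -0.10 for fibroblast markers, -0.13 for macrophage markers and -0.04 for ribosomal proteins. The last of these was 0.03 as deposited.

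**Figure D5:**
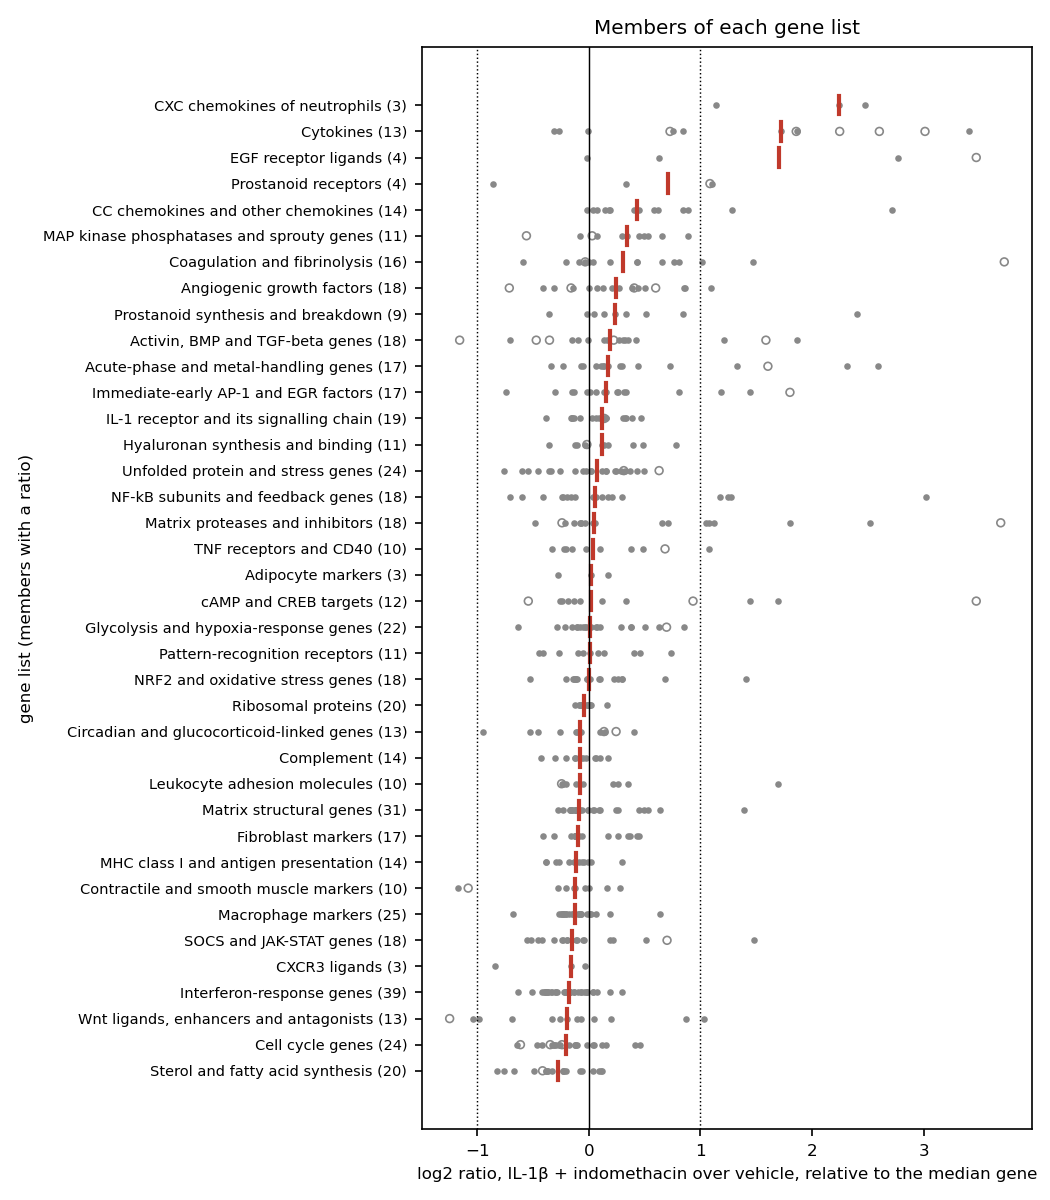
Log2 ratio of IL-1β and indomethacin over vehicle, relative to the median gene (x axis), for the members of each gene list with at least 3 ratios (y axis, number of members with a ratio in brackets), 1 array each. Filled points are measured, open points are bounds, red bars are list medians and dotted lines mark 2-fold; the medians run from 2.24 for neutrophil chemokines, over 3 genes, to -0.28 for sterol and fatty acid synthesis, and members at the floor on both arrays are not drawn.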

How the data were processed

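RNA of the 4 treatments was measured on 1-colour Affymetrix arrays, 1 array each. Each array was deposited as linear intensity, 1 value for each probe set; per the labels, RNA was labelled by standard Affymetrix procedures, whereas for summarisation, background and scaling the software is not given in the sources used here. Array medians differ, from 35.2 to 40.6, so the arrays were not set to a common median. The number of arrays limits the precision.

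Of 22690 probe sets, 1606 are unnamed here and 691 name several genes. After 64 control probe sets were left out, 20380 probe sets named 12393 genes through the platform's annotation, which can be old; 20364 probe sets matched RefSeq (GRCm38.p6) by gene ID, 0 symbols were renamed, and 6 list entries were matched through older symbols. Each gene is represented by its brightest probe set, by mean log2 over the 4 arrays after the floor at the 50th percentile. Log2 ratios were centred on the median of 6222 genes above the floor on all arrays. Promoter windows came from RefSeq and hold the bases upstream of the start site only.

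The members, the gene lists and the rule for named genes were chosen with earlier results of these data known. The rule names the 20 highest and 15 lowest genes that exceed the floor in both dishes and reach a signal of 113.2 in the brighter one, up to 10 per direction at the floor on 1 array and 4-fold above it on the other, up to 5 members per list and any past 2-fold, the receptors and enzymes of IL-1β and the drugs, and up to 15 genes per direction that differ by 1.5 (log2) between the arrays with and without indomethacin. Genes described outside it, such as those of the set highest with indomethacin, were chosen after their values were seen. The 42 lists have 858 entries, 770 with a probe set. Python 3.11.15, numpy 2.4.6 and pandas 2.3.3 were used, and the ratio script was tested on simulated data. Scaling, floor, probe set choice and fold threshold were varied.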

Additional observations from a re-analysis of the deposited data

How the results depend on the processing

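All limits here are those of 1 array per group: no value has an error between dishes. No paired analysis was possible because each group has 1 array, and no result comes from a test. Dim signals, at or near the floor, limit the lower genes most. The 90 higher genes were between 78 and 94 under the other scalings and the median over a gene's probe sets. With an offset of 16 added in place of raising signals to the floor, they stayed in that range. Genes at or under the floor on both arrays still had no ratio there. That range also held without probe sets of suffix _s_at or _x_at, with _a_at kept, a setting chosen after seeing the data. The higher genes were 64 with the floor at the 65th percentile and 123 when every probe set was counted. They were 137 with the floor at the 35th percentile, 236 at a 1.5-fold and 36 at a 3-fold threshold. The 22 lower genes were 12 on values as deposited, 90 and 3 with the floor at the 35th and 65th percentile, and 13 with the offset. They were 36 over probe sets, and 194 and 0 at 1.5-fold and 3-fold. Of the 112 called genes, 102 stayed past 2-fold as deposited and 81 with the offset of 16. Those 81 were 73 of the 90 higher genes and 8 of the 22 lower genes. At the higher floor 66 of the 100 with a value stayed, and Clasrp, with a ratio of at least 1.18, turned to -0.0597. Among list medians, neutrophil chemokines (2.24) were 1.63 under quantile normalization and 1.69 at the lower floor, EGF receptor ligands (1.70) between 0.58 and 1.49 under 4 alternatives, prostanoid receptors (0.71) 0.33 and 0.30 and cytokines 0.74 and 0.91 at the lower and higher floor, matrix proteases (0.04) 0.32 at the higher floor, and CXCR3 ligands (-0.16) -0.54 by the median over probe sets. The medians for cAMP targets, hyaluronan, pattern-recognition receptors, TNF receptors, circadian, glycolysis, stress, NRF2 and ribosomal genes, and for endothelial, chondrocyte and adipocyte markers, changed sign under at least 1 alternative.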

Other observations

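Other gene groups with single members past 2-fold were read as well. Slc7a11, the cystine importer, was at 85.4 in vehicle and 240 under IL-1β with indomethacin, a log2 ratio of 1.41, and was the only one of 18 NRF2 and oxidative stress genes past 2-fold. The aryl hydrocarbon receptor gene Ahr was at 1.22, the sphingosine kinase gene Sphk1 at 1.38 and the C/EBP factor gene Cebpd at 1.00. Cyp7b1, an oxysterol hydroxylase, was at 768 with vehicle and 1895 with treatment, a ratio of 1.23, and both of its probe sets gave 1.23 or 1.24. Cemip, which takes part in hyaluronan breakdown, was at 95.2 with vehicle and 290 with treatment, a ratio of 1.53. Pvr, the poliovirus receptor, was the only one of 10 leukocyte adhesion genes past 2-fold, at 1.70, with its 5 probe sets between 1.48 and 2.19, while Icam1 and Vcam1 were at 0.35 and 0.22.

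Stress genes were on both sides of vehicle, with 0 of 24 past 2-fold. Ddit3, a factor of the unfolded protein response, was at 247 with vehicle and 154 with treatment, a ratio of -0.76, and Casp12 was at -0.60. Cell cycle genes had a median of -0.21, with 18 of 24 below the median gene and 0 past 2-fold.

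Of 1555 probe sets with no gene name here, controls aside, 473 were above the floor on at least 1 of the 2 arrays. Of these, 6 exceeded vehicle at least 2-fold on the treated array and 0 were lower. Both counts are near the shares over all genes with a ratio, 1.32% higher and 0.323% lower. Of 26 called genes with several probe sets above the floor on both arrays, 0 had probe sets that differed in direction by 1.5-fold each, and 1 had probe sets of opposite sign, Dctn6, at 1.03 and -0.11. Some others had a probe set well inside 2-fold. Atp13a3 was at 1.13 and 0.01, Phldb1 at 1.36 and 0.16, and Clcn5 at 1.10 and 0.36.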
